A study of Mus musculus with 4 samples.

Results

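The genes described here encode the proteins of the cytosolic ribosome. They were taken as every gene on the array whose transcript accession maps to a mouse symbol of the Rpl or Rps series, together with Rplp0, Rplp1, Rplp2, Rpsa and Fau, leaving out the ribosomal S6 kinases and pseudogenes. This gave 80 of the 19751 named genes on the array, 49 of the large subunit and 31 of the small subunit, with 166 probes. Of the 82 such genes in the gene table, Rpl32l and Rps23 had no probe matched to them. Rps4l also had a probe, but its transcript is annotated as a pseudogene and it was not counted.

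Expression was measured in C2C12 cells, an established mouse myoblast line, after 3 days of myogenic differentiation. Treated cells had interferon-gamma (IFN-γ) in the medium at 1 ng/ml and control cells had none, and nothing else was labelled as different between them. The labels give the horse serum as 2% in 1 field and 10% in another, for both groups in the latter. Each of 4 arrays compared 1 treated sample, called a biological replicate, in the red dye Cy5 with untreated control RNA in the green dye Cy3, so dye and treatment cannot be told apart. The labels do not say whether the controls came from separate cultures, and p-values therefore measure the spread between these 4 arrays, which may be partly technical.

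A ribosome is built from 2 subunits, each of ribosomal RNA and many small proteins, nearly all needed in equal numbers. The small subunit reads the mRNA, and the large subunit joins the amino acids. Most mRNAs of these proteins begin with an unbroken stretch of cytosines and uridines, the terminal oligopyrimidine tract, through which the growth-regulating kinase mTOR and the RNA-binding protein Larp1 control their translation as a group. In interferon-treated monocytic cells, the large subunit protein L13a is known to leave the ribosome and to act in a complex that silences translation of inflammatory mRNAs. These are properties of translation and of protein, which RNA hybridisation does not measure.

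The start of the gene carries this tract, and for that reason the sequences around the annotated start are shown first, for the members with the largest rises and falls among those with a sequence in the table, and for Rps6 and Rpl13a. Each runs 5′ to 3′ from 60 bases before to 30 bases after the start, from RefSeq on the GRCm38.p6 build. Capitals mark the longest run of C and T of at least 8 bases that lay from 30 bases before to 30 bases after the start. The members called higher were:
Rpl31 (chr1:39367791-39367880, plus strand): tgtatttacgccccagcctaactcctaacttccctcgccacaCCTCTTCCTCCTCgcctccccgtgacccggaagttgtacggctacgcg
Rpl5 (chr5:107900468-107900557, plus strand): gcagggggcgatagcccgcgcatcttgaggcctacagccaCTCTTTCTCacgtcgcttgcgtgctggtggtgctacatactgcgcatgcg
Rps24 (chr14:24490618-24490707, plus strand): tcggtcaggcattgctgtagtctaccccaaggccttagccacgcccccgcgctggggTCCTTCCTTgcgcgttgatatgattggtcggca
Rps6 (chr4:86857338-86857427, minus strand): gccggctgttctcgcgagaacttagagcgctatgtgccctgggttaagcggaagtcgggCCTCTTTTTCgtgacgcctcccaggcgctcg

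The members called lower, and Rpl13a, which was not called, were:
Rps19 (chr7:24884532-24884621, plus strand): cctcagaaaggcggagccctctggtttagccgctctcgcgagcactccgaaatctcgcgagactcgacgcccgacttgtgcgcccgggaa
Rps21 (chr2:180257319-180257408, plus strand): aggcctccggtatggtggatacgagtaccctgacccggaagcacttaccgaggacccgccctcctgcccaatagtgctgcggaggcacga
Rpl36a (chrX:134585594-134585683, plus strand): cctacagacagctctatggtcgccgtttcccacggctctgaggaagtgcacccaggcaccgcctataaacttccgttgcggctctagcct
Rpl13a (chr7:45128716-45128805, minus strand): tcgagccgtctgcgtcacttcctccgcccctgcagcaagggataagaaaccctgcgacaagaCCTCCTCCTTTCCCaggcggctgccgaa

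The lack of capitals in Rps19, Rps21 and Rpl36a comes from where the printed stretch ends. Up to 50 bases after the start their longest runs were 11, 10 and 13 bases, beside 13 in Rpl31, 9 in Rpl5, 12 in Rps24, 10 in Rps6 and 14 in Rpl13a.

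A promoter window was found for 60 of the 80 members, and the other 20 are named only through their probes. A run of at least 8 C or T bases on the sense strand, from 30 bases before to 50 bases after the start, was present in 46 of these 60 windows (76.7%) and in 28.8% of the 27025 windows of all genes. It was present in 10 of the 12 windows of members called higher and in 5 of the 7 windows of members called lower. When the search was stopped at 30 bases after the start, the stretch printed above, the run was found in 32 of 60 members (53.3%), 9 of 12 called higher, 1 of 7 called lower and 22.7% of all windows. This shorter search was chosen after the counts of the first had been seen, and since the count for members called lower went from 5 to 1 with it, neither is read as a difference between members that rose and fell. An annotated start can lie some bases from the start used in these cells.

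Further motifs were searched on both strands of the whole 300-base window. CCGGAAG, a core bound by ETS family factors, was in 24 of the members' 60 windows and in 9.14% of all windows. AAGATGGC, the core bound by YY1, was in 10.0% against 2.87%. TATAAA, the TATA box, was in 10.0% against 14.2%. CACGTG, the E-box bound by Myc, was in 8.33% against 7.24%. These letters are a description of the windows and do not show binding.

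Of the 80 members, 78 were tested, each through a probe that stood well above background on 3 or 4 arrays in 1 and the same dye. A gene was called when the adjusted p of its mean log2 ratio of treated over control, from limma with Benjamini-Hochberg adjustment over all 15678 tested genes, was under 0.05. After loess normalisation, which sets the ratio of genes of like signal to about 0 on each array, 14 members were called higher, 8 lower and 56 were not called. Under median centring without loess all 8 called lower turned positive. Of all tested genes 33.7% were called, 19.8% higher and 13.9% lower, against 28.2% of the members. With the scanner's own log ratio, 33.5% of all genes and 12 of the 78 members (15.4%) were called. Neither with loess nor with that ratio was the members' share above that of all genes. The scanner's ratio cannot be read as free of dye normalisation. The authors' deposited values, nearly the same for tested probes, had column medians of −0.12 to −0.10. Median intensities were 149.5 to 264 in Cy5 and 79.8 to 97 in Cy3. After loess no member changed 2-fold, beside 441 of the 15678 tested genes, and the mean farthest from 0 was −0.73. The members' median log2 ratio was 0.07 after loess, beside 0.03 for all tested genes. Under median centring the members' median was 1.10, itself past 2-fold, beside 0.70 for all tested genes.

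**Figure D1:**
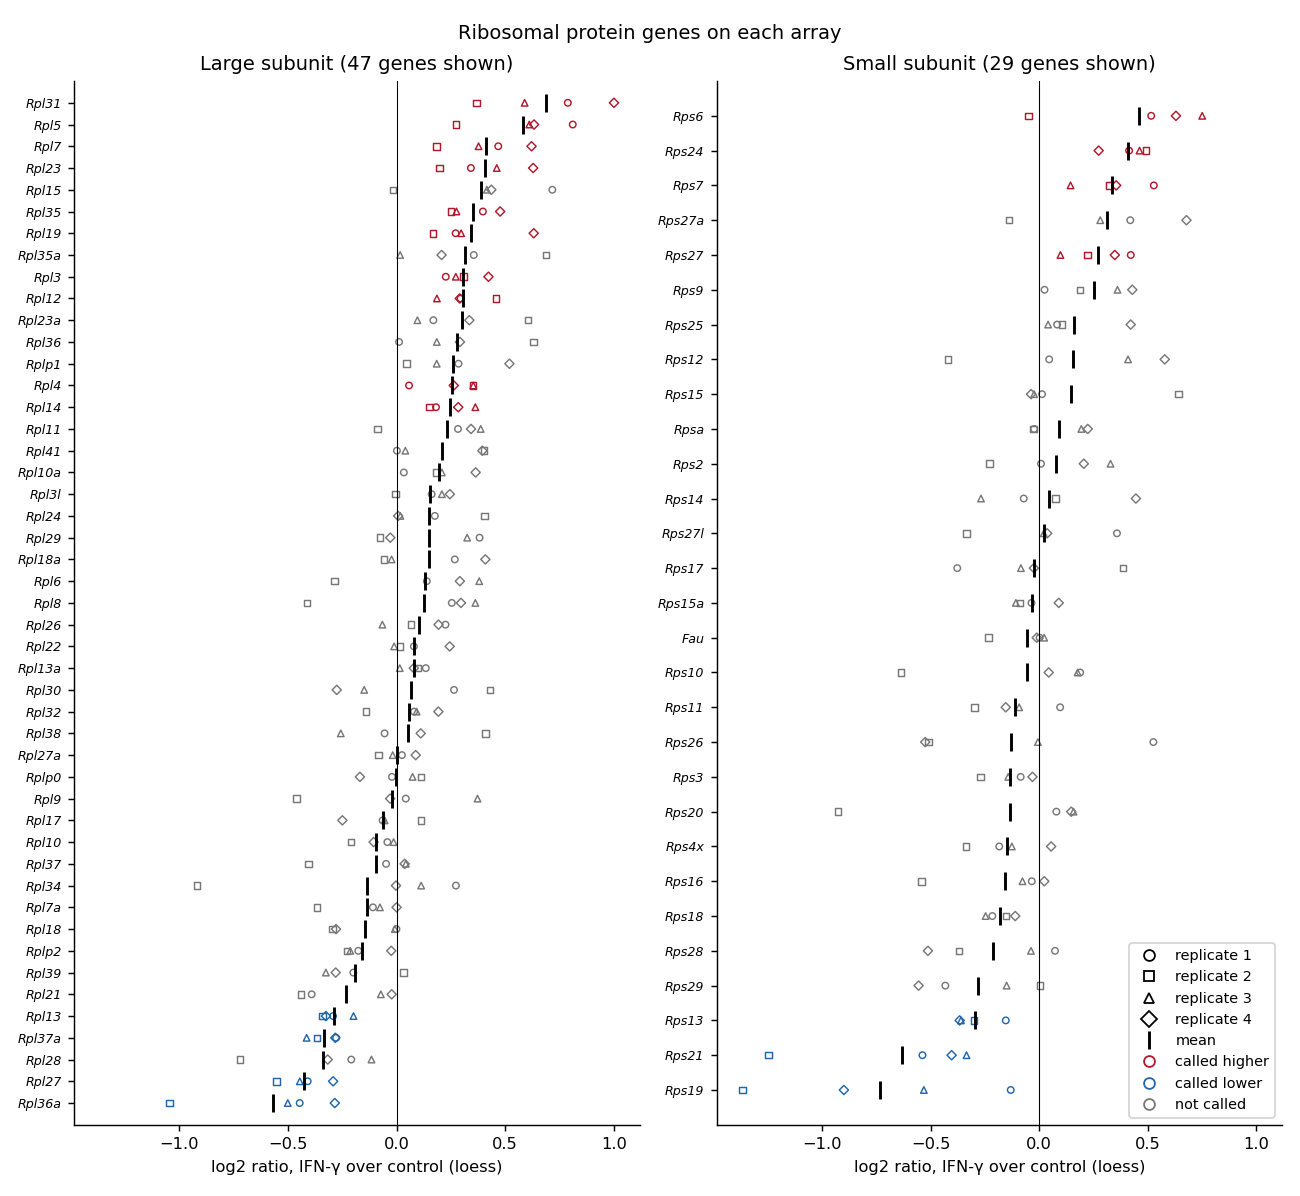
Log2 ratio of treated over control after loess for 47 large and 29 small subunit genes on each of the 4 arrays, with the mean as a bar, ordered by mean within each subunit. The means run from −0.73 to 0.69, and replicate 2 (squares) is the lowest array for 46 of all 78 tested members.

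The normalisation sets what direction means for these genes, because they are among the brightest on the array. The signal is the mean log2 intensity of both channels, and its median was 16.2 over the members and 9.32 over all tested genes. Under median centring of each array, with no loess, the median of all tested genes was 0.70, and the members' median was 1.10. In that setting 75 members were called higher and 1 lower, while 10510 of all tested genes were called higher. In either direction this was 97.4% of members and 83.9% of all tested genes. A value of 0.70 there is therefore the level of the typical gene. With the arrays centred on the tested genes instead, an alternative chosen after the data were seen, 49 members were called higher and 1 lower, with a median of 0.43. In either direction this was 64.1% of members, beside 65.0% of all tested genes. The 454 other tested genes in the members' signal range, 14.6 to 17.6, which holds 74 of the members, had a median of −0.09 after loess. Because loess sets genes of like signal near 0, a shift shared by all bright genes would not remain in the values below, and whether the group as a whole rose cannot be told from its dye response. The order of the members depended less on this choice, with a Spearman rho of 0.96 between their ratios under both normalisations across the 78 genes. Loess shifts genes of like signal by like amounts, and 74 members share that signal range. A high rho was therefore set in advance and is no measure of a stable order. With the mean of a gene's tested probes in place of the brightest, rho with the main ratios was 0.89. The 78 genes share the arrays and are not independent.

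**Figure D2:**
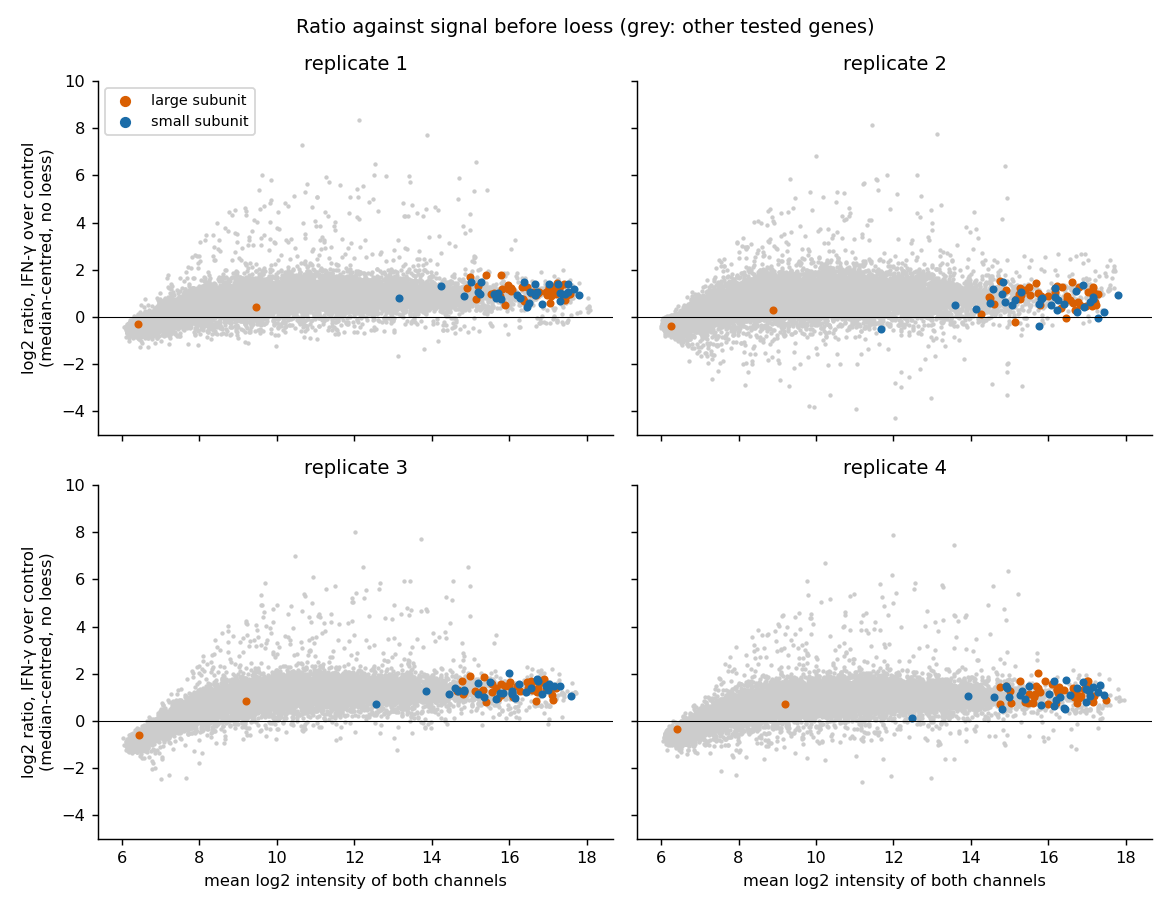
Median-centred log2 ratio without loess against the mean log2 intensity of both channels for all tested genes (grey) and the tested members of the large and small subunits, 1 panel per array. Ratios climb with signal at the dim end of each array and then level off, and most members lie at the bright end, with a median of 1.10 over the members and 0.70 over all tested genes.

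In the large subunit, 10 of 47 tested genes were called higher (21.3%), 4 lower (8.51%) and 33 were not called, with a median of 0.13. In the small subunit, 4 of 31 were called higher (12.9%), 4 lower (12.9%) and 23 were not called, with a median of −0.04. Of all tested genes 19.8% were called higher and 13.9% lower. The median of the large subunit was 0.13, 0.03, 0.07 and 0.19 on replicates 1 to 4, and that of the small subunit was 0.01, −0.23, −0.01 and 0.04. The large subunit lay above the small on each of the 4 arrays, by 0.12, 0.26, 0.08 and 0.15, a mean of 0.15 ± 0.08 (SD, n = 4). The difference has no test, since the genes of a subunit are not replicates. Under median centring the medians were 1.14 and 1.00.

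**Figure D3:**
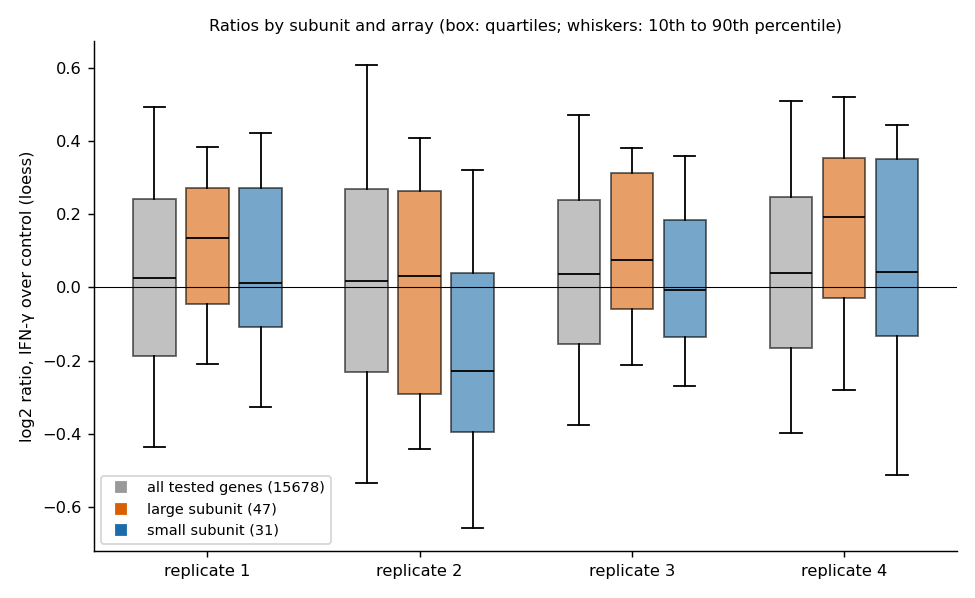
Distribution of log2 ratios after loess on each array for all tested genes, the 47 genes of the large subunit and the 31 of the small subunit. Boxes span the quartiles with the median as a line and whiskers reach the 10th and 90th percentiles; the large subunit's median lies above the small subunit's on each array, and the small subunit's is lowest on replicate 2, at −0.23.

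Among large subunit genes the highest ratio was that of Rpl31, whose protein sits near the exit of the tunnel for the new chain. Its log2 ratio was 0.79, 0.37, 0.59 and 1.00 on replicates 1 to 4. All arrays were above 0, and replicate 2 was the lowest. The mean was 0.69 ± 0.27 (SD, n = 4; 1.61-fold; adjusted p = 0.0064, limma). Rpl5, which with Rpl11 and 5S RNA forms the particle that binds Mdm2 when ribosome assembly fails, had ratios of 0.81, 0.27, 0.61 and 0.63. Again replicate 2 was the lowest and all were positive, with a mean of 0.58 ± 0.22 (adjusted p = 0.0070, limma). Its partner Rpl11 had 0.28, −0.09, 0.39 and 0.34, which straddle 0, and was not called (adjusted p = 0.11, limma). Other probes of Rpl11 were at −0.04 and −0.03 and were not called.

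Rpl7, an RNA-binding protein of the large subunit, had ratios of 0.47, 0.18, 0.38 and 0.62. Rpl23 had ratios of 0.34, 0.20, 0.46 and 0.63, and its protein also binds Mdm2. Both were positive on all arrays with replicate 2 lowest and had a mean of 0.41 ± 0.18. Rpl35, a protein of the tunnel exit, had 0.40, 0.25, 0.28 and 0.48, a mean of 0.35 ± 0.11 with a narrow spread. Rpl3, a protein near the site where amino acids are joined, had 0.23, 0.31, 0.27 and 0.42. Its mean was 0.31 ± 0.08, and replicate 2 was not its lowest array. Also called higher were Rpl19, Rpl12, Rpl4 and Rpl14 (means 0.24 to 0.34), though second probes of Rpl12 and Rpl14, at 0.04, were not called. Of these 10 genes, Rpl31 and Rpl5 kept their call whichever array was left out, and the other 8 lost it without replicate 3 and also without replicate 4.

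The large subunit genes called lower after loess were Rpl36a, Rpl27, Rpl37a and Rpl13. Rpl36a had ratios of −0.45, −1.05, −0.50 and −0.28, with replicate 2 far below the other arrays, and a mean of −0.57 ± 0.33 (adjusted p = 0.019, limma). The call of Rpl36a was lost without replicate 1 or 3. Rpl27 had −0.41, −0.55, −0.45 and −0.29. All were negative within a narrow range, the mean was −0.42 ± 0.11 (adjusted p = 0.0065, limma), and this call held without any 1 of the arrays. Rpl37a, a zinc-binding protein and among the brightest members, had −0.28, −0.37, −0.41 and −0.28, a mean of −0.34 ± 0.07. Rpl37a lost its call without replicate 3 (adjusted p = 0.063, limma). Rpl13 had a mean of −0.29 ± 0.06 and lost its call without replicate 1, 3 or 4. Under median centring Rpl36a was at 0.47, Rpl27 at 0.62 and Rpl37a at 0.72, all positive and near or below the 0.70 of the typical gene.

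The stalk of the large subunit, which recruits elongation factors, is made of Rplp0, Rplp1 and Rplp2. None of the 3 was called on its brightest probe. Rplp0, a common reference gene for measurements of RNA, had ratios of −0.02, 0.11, 0.07 and −0.17, on both sides of 0. Its other 2 probes were called lower, at −0.25 and −0.40. Rplp1 had 0.29, 0.05, 0.19 and 0.52, and Rplp2 had −0.18, −0.23, −0.21 and −0.02. Rplp1 was positive and Rplp2 negative on all arrays, and neither passed the test (adjusted p = 0.071 and 0.11, limma). Rpl37, another bright member, had a mean of −0.09 ± 0.21 and was not called.

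Rpl13a encodes L13a. Its ratios were 0.13, 0.10, 0.02 and 0.08, all slightly above 0, with a mean of 0.08 ± 0.05 (adjusted p = 0.34, limma), and its second probe was at 0.11 ± 0.24. Of the other genes of the L13a complex and its kinases, Syncrip, an RNA-binding protein, was called lower at −0.28 ± 0.16. Gapdh had 0.11 ± 0.14 and Dapk3, also called ZIPK, had −0.35 ± 0.30, neither called. Eprs1 and Dapk1 were not tested. Under median centring Rpl13a was at 1.12.

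In the small subunit the highest ratio was that of Rps6, the substrate of the S6 kinases downstream of mTOR. Its ratios were 0.52, −0.05, 0.75 and 0.63, with replicate 2 alone at or below 0. The mean was 0.46 ± 0.35 (adjusted p = 0.043, limma), and the call was lost without replicate 1, 3 or 4. Its other 2 probes were called higher as well, at 0.52 and 0.65. Rps24, a gene mutated in Diamond-Blackfan anaemia, had 0.41, 0.49, 0.46 and 0.27, a mean of 0.41 ± 0.10 (adjusted p = 0.0066, limma). All arrays were positive, replicate 2 was the highest, and the call held without any 1 of the arrays. Rps7 and Rps27 were called higher with means of 0.34 ± 0.16 and 0.27 ± 0.14, and both lost the call without replicate 1 or 4, Rps27 also without replicate 3.

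The largest fall after loess was that of Rps19, the gene most often mutated in Diamond-Blackfan anaemia. Rps19 had only 1 tested probe, whose signal of 12.5 lay below the range of 14.6 to 17.6 that holds 74 members. Its ratios were −0.13, −1.37, −0.53 and −0.90, all negative but spread widely, and replicate 2 was the lowest. The mean was −0.73 ± 0.53 (1.66-fold lower; adjusted p = 0.030, limma), and the call was lost without replicate 3 or 4. Rps21 had −0.54, −1.25, −0.34 and −0.40, again with replicate 2 far below the rest, and a mean of −0.63 ± 0.42 (adjusted p = 0.025, limma). Rps21, too, had only 1 tested probe. Rps13 had a mean of −0.30 ± 0.10. Rps21 lost the call without replicate 1, 3 or 4, and Rps13 without replicate 3 or 4. Under median centring Rps19 was at 0.28 and Rps21 at 0.41, so that the direction of each turned while both stayed below the typical gene.

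The remaining small subunit genes singled out for their role or brightness were not called. Rps14, Rps10 and Rps20 were among the brightest of the subunit. Rps14 had −0.07, 0.07, −0.27 and 0.44, on both sides of 0. Rps10 had 0.19, −0.64, 0.18 and 0.04, and Rps20 had 0.08, −0.93, 0.16 and 0.15. In both of the last, replicate 2 alone was negative and far from the rest. Rpsa, also known as the laminin receptor, had a mean of 0.09 ± 0.14, and Rps3, a protein of the mRNA entry that also has roles in DNA repair, had −0.13 ± 0.10. Fau and Rps27a are made as fusions with a ubiquitin-like protein and with ubiquitin. Fau had a mean of −0.06 ± 0.12. Rps27a had 0.42, −0.14, 0.28 and 0.68, not called on that probe (adjusted p = 0.12, limma), while a second probe at 0.31 was called higher.

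Paralogs were read as well, some of them of restricted expression. Rpl3l, the striated muscle form of Rpl3, stood well above background on 0 arrays for control RNA and on 3 for treated RNA. Its ratio of 0.15 ± 0.11 was not called (adjusted p = 0.14, limma) and depends on the background level. Rpl10l and Rpl39l, known from the testis, were not tested. Rpl10l was not well above background in either channel on any array, and Rpl39l on 1 array in the treated channel. Rps27l, a p53 target, had a mean of 0.02 ± 0.28 and Rps4x had −0.15 ± 0.16, neither called. Both stood well above background on 4 arrays in each channel. Rps4l, annotated as a pseudogene, was at −0.13 ± 0.08 on a dim probe and was not called.

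Replicate 2 stood apart, in these genes and over all genes. It was the lowest array for 46 of 78 members (59.0%), against 39.2% of all tested genes. It was also the highest array for 15 members and for 4790 of the 15678 tested genes. Pearson correlations between arrays across the members were 0.39 to 0.53 for pairs that include replicate 2 and 0.65 to 0.76 for the others, as a description of genes that share the arrays. Over all tested genes they were 0.63 to 0.72 and 0.86 to 0.90. Without replicate 2, 34 members were called, 23 higher and 11 lower, and the 22 called with all arrays included 1, Rpl4, that was then lost (adjusted p = 0.051, limma). This was 43.6% of members, beside 44.9% of all genes. Without replicate 1, 3 or 4 the number called was 10, 5 or 6, or 12.8%, 6.41% and 7.69% of members, beside 21.5%, 16.1% and 18.4% of all genes. The treated channel of replicate 2 had a median intensity of 149.5, below the 224 to 264 of the other arrays, and whether this bears on its ratios was not tested.

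The values above are those of the brightest probe of each gene, and 51 members had 2 or more tested probes. Over all 162 tested probes of members, each tested on its own, 31 were called higher and 15 lower, beside 33.7% of all probes called. No member had probes called in opposite directions. Of 12 called members with a second probe, the second was called in the same direction in 6 and not called in 6, and the sign was the same in 12. The median span between the probes of a member was 0.26. Rpl31 had 3 of 4 probes called higher, and Rpl36a had 2 of 3 called lower with the other at 0.01. The second probe of Rpl27 was at −0.13 and was not called. Rps24 had 2 probes called higher and another at −0.05, each for a different transcript.

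Rpl17 had the widest span, 1.07, over 7 tested probes that all carry 1 transcript accession. The brightest 2 were at −0.06 and −0.11 and were not called. The next 4 were called higher, at 0.65, 0.76, 0.70 and 0.97, and the last was at 0.13 and was not called. With the mean of the probes the gene was at 0.43 (adjusted p = 0.0064, limma). Ribosomal protein genes have many processed pseudogenes of near-identical sequence. The files hold no probe sequences, and which copies a probe detects was not tested.

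**Figure D4:**
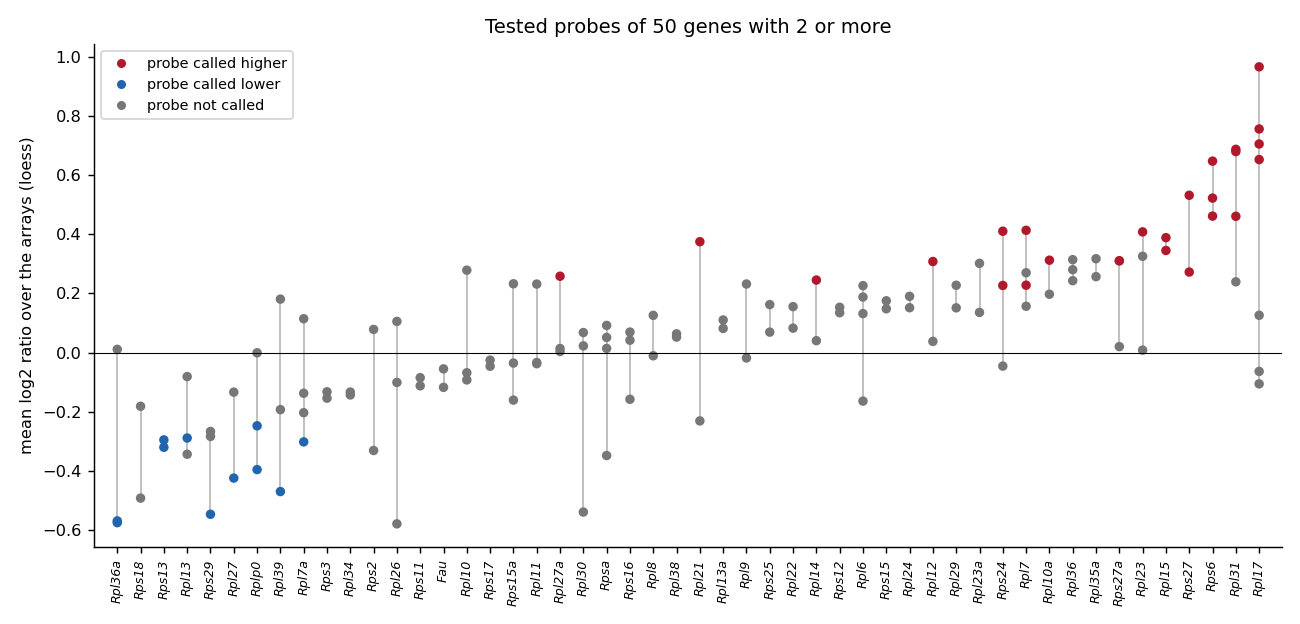
Mean log2 ratio over the arrays after loess for each tested probe of 50 of the 51 members with 2 or more, ordered by the median of their probes, with a line from the lowest to the highest probe of a gene. Rpl17 has 4 probes called higher and 3 that were not called, a span of 1.07, and no gene has probes called in both directions.

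Genes with similar names or joined to the ribosome were read beside the members. Rack1, a signalling scaffold on the small subunit, rose by 0.33 ± 0.01, and Rps3a1, which encodes the small subunit protein S3a but whose symbol lies outside the rule, rose by 0.26 ± 0.14. Rpl7l1 rose by 0.47 ± 0.10. Rpl22l1, the paralog of Rpl22, was called lower at −0.90 ± 0.67, while Rpl22 was at 0.08 and not called. Rpl36al had −0.09 ± 0.09 and was not called. Among the kinases, Rps6ka4 and Rps6kb2 were called higher at 0.47 and 0.32. Rps6kb1 was called lower on its brightest probe, at −0.77 ± 0.44, while its other tested probes were at 0.10 and −0.20 and were not called. Of this list 5 of 18 tested genes were called higher and 3 lower.

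Genes that make or use ribosomes are described by counts, beside 19.8% higher and 13.9% lower over all tested genes, and each median is after loess. Of 58 genes of ribosome assembly, 22 were called higher and 5 lower, with a median of 0.13. Among the called genes the largest changes were those of Rrp12 at −0.81 ± 0.40, Pes1 at 0.67 ± 0.17 and Gnl3, or nucleostemin, at 0.62 ± 0.14. Of 11 genes of RNA polymerase I, which transcribes ribosomal RNA, 5 were called higher and 0 lower, with a median of 0.17. They included Taf1b at 0.54 and Polr1b, its second-largest subunit, at 0.38.

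Other mRNAs with a terminal oligopyrimidine start had 8 of 20 called higher and 0 lower, with a median of 0.20. They included Cct4, a chaperonin subunit, at 0.67, Tpt1 at 0.66 and Eif3e at 0.64. Initiation factors had 8 of 39 called higher and 3 lower, with Eif3j1 at −1.07, Eif5 at −1.05 and Eif4g2 at 0.67. Elongation and termination factors had 3 of 13 called higher and 0 lower, among them Eef1a1, which brings aminoacyl-tRNA to the ribosome, at 0.44 ± 0.08. The lists share some genes, such as Eef1a1 and Eif3e.

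The mitochondrial ribosome, whose proteins are made by these same cytosolic ribosomes, had 5 of 48 large subunit genes called higher and 9 lower, with a median of 0.00. Mrpl49 was at −0.60 and Mrpl13 at 0.56. Its small subunit had 7 of 29 called higher and 4 lower, with a median of 0.08, and Mrps2 at 0.95 ± 0.13. Among genes that control ribosomal protein mRNAs or sense ribosome stress, 8 of 25 were called higher and 5 lower. The largest changes among called genes were those of Eif2ak2, the interferon-induced kinase PKR, at 1.41 ± 0.20, Myc at 1.10 ± 0.48 and Rps6kb1. Under median centring the medians of these lists lay between 0.82 and 1.22.

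**Figure D5:**
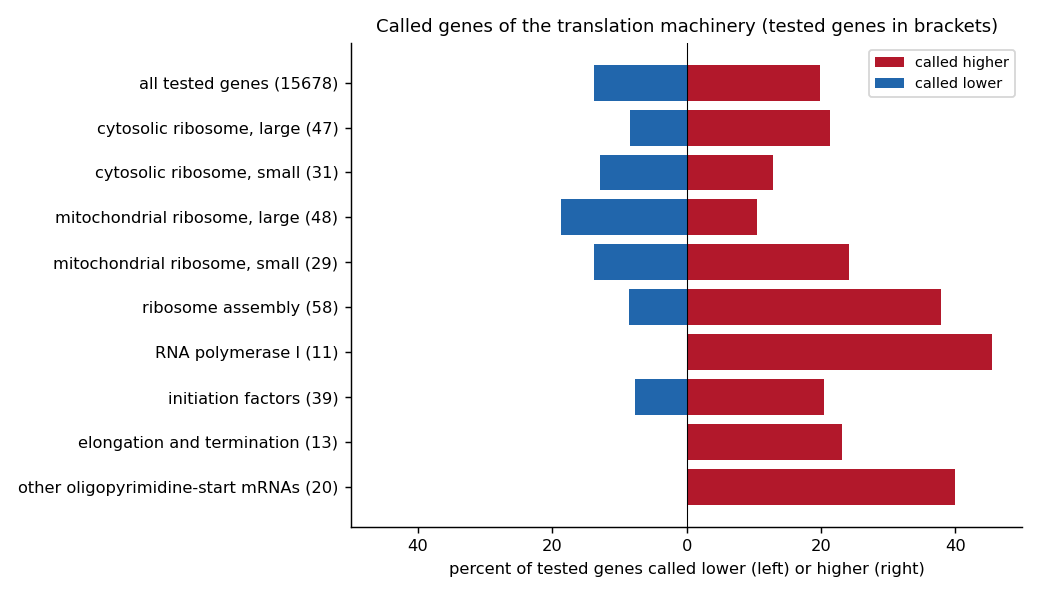
Percent of tested genes called lower (bars to the left) and higher (bars to the right) after loess, for all tested genes, both subunits of the cytosolic ribosome and the related lists, with the number tested in brackets. The large cytosolic subunit has 21.3% called higher and 8.51% lower, and the small subunit 12.9% each way, beside 19.8% and 13.9% of all genes. Ribosome assembly has 22 of 58 called higher.

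Cell type markers were read as a check of the labelled cells. All 15 skeletal muscle markers were tested, with 1 called higher (Myf5, 0.60) and 9 lower, led by Des at −1.23 and Ckm at −1.12. Their median was −0.62 after loess. Under median centring their median was 0.43, which still lay below the 0.70 of all tested genes. Fibroblast markers had 4 of 7 called higher and 0 lower, macrophage markers 1 of 5 higher (Cd14) and 1 lower (Csf1r), endothelial markers 0 of 4 higher and 1 lower (Kdr), and the 1 tested adipocyte marker, Cidec, was not called. In RNA from whole cultures, fewer cells of a type and less RNA per cell cannot be told apart, and the part of these markers in the members' ratios was not tested.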

How the data were processed

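The spot intensities were deposited by the authors as scanner output of 4 two-colour Agilent arrays, which per the file headers came from Agilent Feature Extraction 10.7.3.1. The files hold median intensities, local backgrounds and a log10 ratio of Cy5 over Cy3, per the file headers. The authors' deposited value table is in log2 units: its slope on the scanner's log10 ratios was 3.32 over tested probes on each array. Its column medians were −0.12 to −0.10. On each array 99.88% to 99.99% of its tested probes lay within 0.01 of the scanner's ratio in log2 units. For tested probes it therefore shows no centring beyond that of the scanner's ratio. Per the design text, the authors used GeneSpring with an unpaired test and a fold of 2.

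Intensities were background-corrected with normexp (offset 50) and normalised by loess within each array in limma 3.58.1 (R 4.3.3), with control spots at weight 0 and outlier-flagged spots left out. Of 39429 probes, 26055 had 1 symbol through their accession in the RefSeq table (GRCm38.p6), 0 several and 13374 none. The array's build differs, so no gene coordinates were taken from it beyond the promoter windows. Means over the arrays were tested against 0 with lmFit and eBayes, two-sided. Median intensities were 79.8 to 97 in Cy3 and 149.5 to 264 in Cy5, no spot was saturated, and the 4 arrays limit the precision. The arrays lay on 1 slide with 1 scan.

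Members and lists were chosen with earlier results of these data known. Named genes were the 6 largest rises and 6 largest falls with 1 sign on all arrays, the 4 brightest of each subunit, a fixed set, members whose probes disagree, near-named genes, the L13a complex and up to 3 called genes of each other list; other called members are named to fill out the counts, and some items are not reported here. The scripts were tested on simulated data. Alternatives were other centrings, background corrections, filters, probe rules, the authors' ratios and leaving out each array.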

Additional observations from a re-analysis of the deposited data

Results flagged for a closer look

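In 2 of 34 values with 4 arrays that were examined, 1 array lay far from the others relative to the group's range; chance gives such a gap in about 1 of 20. Rps20 was at −0.93 on replicate 2 and at 0.08, 0.16 and 0.15 on the others. Fau was at −0.23 on replicate 2 and at 0.00, 0.02 and −0.01 on the others. Both gaps lie on the array that was lowest for most members.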

How the results depend on the processing

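The main test was paired by array, because it used the ratio of treated over control RNA within each array. With only 1 group of ratios no further pairing was possible. Leaving out 1 array gave 3 to 23 members called higher and 1 to 11 lower, 1595 to 4062 of all genes higher and 927 to 2981 lower, a members' median of 0.03 to 0.12 and a large minus small difference of 0.12 to 0.16. Median centring gave 10510 genes higher, 75 members higher and 1 lower, and a members' median of 1.10. Ratios below 0 after loess became positive there: Rps19 0.28, Rps21 0.41, Rpl36a 0.47, Rpl27 0.62, Rpl37a 0.72, Rps10 1.00, Rps20 0.92, Rplp0 1.05, Rplp2 0.89, Rpl37 0.96, Fau 1.00, Rps3 0.89, Rps4x 0.89 and Rpl17 0.97, while Rpl3l became −0.41. A further centring, on the median of tested genes and picked once the data had been seen, gave 4709 genes higher and 5478 lower, 49 members higher and 1 lower, and a median of 0.43, with Rpl37a at 0.043, Rplp0 at 0.38, Fau at 0.32, Rpl17 at 0.29 and Rpl3l at −1.09; Rps19, Rps21, Rpl36a and Rpl27 stayed negative without passing. The scanner's log ratio and the authors' deposited value table, which hold nearly the same values for tested probes, each gave 6 members higher. In both, 12 of the 22 calls were kept and 10 lost. Of the members 15.4% were called there, beside 33.5% of all genes. The mean of the probes kept 19 of the 22 calls and put Rpl17 at 0.43, and single probes gave 31 higher and 15 lower. The methods' t-test with its fold of 2 gave 279 genes higher and 119 lower after Benjamini-Hochberg adjustment, 281 and 147 before it, and 0 members in either direction both times; without the fold, 31 members passed unadjusted and 16 adjusted. The search for C and T runs to 30 bases, likewise picked later, gave 1 of 7 in place of 5. The choice of no background correction and a loess with these probes at weight 0 kept all 22 calls. The other filters also kept them, but this was largely set in advance. No spot was saturated, so leaving out saturated spots repeated the main fit. The filters on dim probes left the members' ratios as they were and changed only the genes tested beside them. Causes were not tested.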
